A study of Mus musculus with 6 samples.

Results

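A set of 10 imprinted growth genes and noncoding RNAs was followed through RNA immunoprecipitation libraries of mouse muscle stem cells. The 10 were chosen by name, with earlier results of these data known. They were found by symbol among the 55376 genes of the deposited count table. The members were Meg3, Rian, Mirg, H19, Kcnq1ot1 and Airn, which are long noncoding RNAs, and Peg3, Plagl1, Dlk1 and Igf2, which code for proteins.

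RNA was sequenced from 3 groups of 2 libraries each. The groups were RNA immunoprecipitated with an antibody against CPEB4 (CPEB4 RIP), RNA from an IgG RIP, where the antibody has no set target, and input, the total RNA that was not immunoprecipitated. All 6 libraries came from muscle stem cells of C57BL/6 mice aged 3 months, isolated by fluorescence-activated cell sorting and amplified by SMART-seq2, a full-length cDNA method for little RNA. CPEB4 is a cytoplasmic protein that binds mRNAs near their 3′ ends and regulates their poly(A) tails and translation, and the comparison asks which RNAs came down with it. No genetic change or treatment separated the groups, and how many mice went into a library is not stated in the labels. The study's design text calls the CPEB4 RIP libraries biological replicates and says less of the others, and the spread behind every p-value here, that between these libraries, may be partly technical.

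Imprinted genes are expressed from the chromosome inherited from one parent, because a control region of the domain was methylated in either egg or sperm. Many lie in clusters that join growth-promoting paternal genes, growth-limiting maternal genes and long noncoding RNAs, and several of those noncoding RNAs silence their neighbours in cis. In adult muscle stem cells, imprinted domains are known for the H19 and Meg3 noncoding RNAs and for Peg3, which has been used to mark adult stem cells of several tissues. The counts do not separate the parental alleles.

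Positions are from RefSeq on GRCm38, the assembly of mm10. Meg3 (chr12:109540996-109571729), Rian (chr12:109603945-109661716) and Mirg (chr12:109734981-109749458) are the maternally expressed noncoding RNAs of the Dlk1-Dio3 domain, and Dlk1 (chr12:109452485-109463336) is its paternally expressed coding gene. H19 (chr7:142575530-142578146) and Igf2 (chr7:142650768-142666816) share a control region and lie 72621 bases apart. Kcnq1ot1 (chr7:143213111-143296547) lies inside Kcnq1, and Peg3 (chr7:6703892-6730462) stands at the other end of chromosome 7. Plagl1 is at chr10:13090832-13131694 and Airn at chr17:12741311-12859884, where Airn overlaps Igf2r by 28396 bases. Whether the counting used strand is not known here, so reads of Airn and Igf2r, of Kcnq1ot1 and Kcnq1, of Igf2 and Igf2os, of Peg3 and Peg3os, or of Meg3 or Rian and Rtl1 cannot be told apart where the pair overlaps. Plagl1 likewise overlaps Hymai by 5056 bases, and their reads cannot be told apart there. Hymai and Peg3os were not found by symbol among the counted genes.

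Several members are hosts of microRNAs, and RefSeq (GRCm38.p6) places 16 hairpin genes of the count table inside them. Mirg holds 10, Rian 3, and Meg3, H19 and Igf2 have 1 each. The mature forms below are shown because they are the products for which these hosts are best known. They are written 5′ to 3′ with the seed, bases 2 to 8, in capitals.
mmu-miR-675-5p (H19): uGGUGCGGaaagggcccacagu
mmu-miR-770-5p (Meg3): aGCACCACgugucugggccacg
mmu-miR-370-3p (Rian): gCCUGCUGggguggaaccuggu
mmu-miR-369-3p (Mirg): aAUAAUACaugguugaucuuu
mmu-miR-410-3p (Mirg): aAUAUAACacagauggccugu
mmu-miR-453 (Mirg): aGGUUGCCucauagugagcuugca
mmu-miR-496a-5p (Mirg): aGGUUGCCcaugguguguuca
mmu-miR-483-3p (Igf2): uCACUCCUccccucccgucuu
Of the mature forms matched to these hosts, mmu-miR-453 and mmu-miR-496a-5p were the one pair with a shared seed, GGUUGCC. The 16 hairpin genes together had 54 counts over the 6 libraries, and 6 of them had 0, among them Mir675 of H19, Mir770 of Meg3 and Mir410 of Mirg. A count of 0 allows up to 3 counts in a library by counting error. Mir369 had the highest total, 15. The levels below are thus those of the host transcripts, and the hairpin genes had too few counts to be compared.

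Meg3 and Peg3 are the members with the highest counts, and their promoters (250 bases before to 50 after the RefSeq start) are shown because both hold the palindrome TGACGTCA, the cAMP response element, in capitals. In the Meg3 promoter the second stretch in capitals is a TATA box form, TATATAA.
Meg3 promoter (chr12:109540746-109541045, plus strand): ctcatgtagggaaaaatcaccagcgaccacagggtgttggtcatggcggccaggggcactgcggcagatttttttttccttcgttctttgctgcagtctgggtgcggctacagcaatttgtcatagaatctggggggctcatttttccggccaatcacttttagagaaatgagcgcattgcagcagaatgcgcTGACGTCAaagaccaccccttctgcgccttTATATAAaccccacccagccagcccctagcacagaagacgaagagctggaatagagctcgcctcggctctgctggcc
Peg3 promoter (chr7:6730370-6730669, minus strand): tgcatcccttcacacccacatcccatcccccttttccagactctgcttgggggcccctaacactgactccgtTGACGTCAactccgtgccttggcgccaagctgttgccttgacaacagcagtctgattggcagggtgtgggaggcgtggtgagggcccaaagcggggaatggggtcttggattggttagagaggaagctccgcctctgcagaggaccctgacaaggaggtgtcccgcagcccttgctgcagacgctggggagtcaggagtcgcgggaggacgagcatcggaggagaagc
TGACGTCA begins 57 bases before the start of Meg3 and 178 bases before that of Peg3. It was found, on either strand, in 588 of 32851 promoter windows of the same length (1.79%), and in these 2 of the 13 windows listed for the members. TATATAA was found in 1065 of the 32851 windows (3.24%), and among the members in Meg3 alone. CCAAT, searched in the same way, was found in 37.4% of all windows and in 5 of the 13. These are matches of letters and not measured binding sites.

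Library totals were 12679621 and 20843042 counts in the CPEB4 RIP libraries, 9018323 and 14225502 in the IgG RIP libraries, and 16314360 and 12426827 in the input libraries. Levels in CPM are counts scaled to a library of 1000000 by way of TMM, a trimmed mean of log ratios between libraries. Log CPM of replicate libraries, over genes, had a Pearson correlation of 0.981 for CPEB4 RIP, 0.873 for IgG RIP and 0.975 for input, so the IgG RIP libraries stood furthest apart. All 8 muscle stem cell markers, Pax7, Myf5 and Myod1 among them, were detected in every library. Their summed level, most of it from Sdc4, was also highest in CPEB4 RIP. It was 62196 and 68056 CPM in CPEB4 RIP, 61589 and 60194 CPM in IgG RIP, and 45597 and 46826 CPM in input. Of the 8, 0 were higher and 1 lower over IgG RIP, beside 4.79% and 3.42% of all genes. Over input 1 was higher and 2 lower, beside 8.0% and 4.7%. Markers of other cell types were present too, and for 4 of 7 such lists both CPEB4 RIP libraries summed above the other 4. These were the myofibre, fibro-adipogenic, leukocyte and erythroid lists. The 6 myofibre markers summed to 222 and 172 CPM in CPEB4 RIP, 105 and 137 CPM in IgG RIP, and 111 and 167 CPM in input. The summed level of 6 fibro-adipogenic markers was 1721 and 1383 CPM in CPEB4 RIP, 806 and 1130 CPM in IgG RIP, and 584 and 768 CPM in input. That of 5 erythroid markers was 655 and 326 CPM in CPEB4 RIP, 86.5 and 146 CPM in IgG RIP, and 108 and 178 CPM in input.

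The members made up a smaller share of the CPEB4 RIP libraries than of either background. Their summed share of counts was 0.0423% and 0.0409% in the CPEB4 RIP libraries, 0.0720% and 0.0720% in the IgG RIP libraries, and 0.115% and 0.0846% in the input libraries. The 3 groups did not overlap. Within the members, the 6 noncoding RNAs took 54.2% and 53.5% of the counts in the CPEB4 RIP libraries, 56.1% and 49.6% in the IgG RIP libraries, and 61.4% and 62.8% in the input libraries. A share of a bulk RIP library is relative to the other RNAs in it. It measures neither how many cells express a transcript nor how much each cell has.

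**Figure D1:**
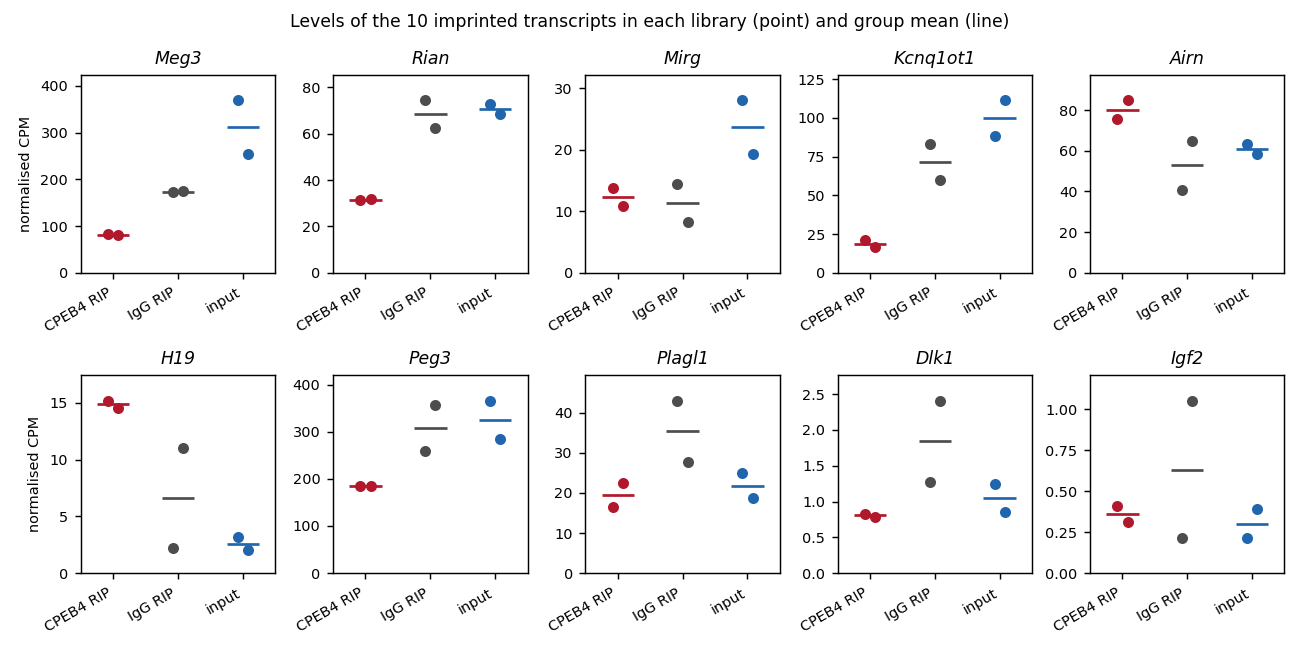
Level of each of the 10 imprinted transcripts, as normalised CPM (y axis, starting at 0 on a scale of its own for each gene), in CPEB4 RIP, IgG RIP and input (x axis). Points are libraries and lines are the means of the 2 libraries of a group. Meg3, Rian, Kcnq1ot1 and Peg3 lie lowest in CPEB4 RIP, H19 and Airn highest, and the IgG RIP libraries stand far apart for H19, at 2.23 and 11.1 CPM.

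Compared per length, as FPKM of the deposited table, Airn, Peg3, H19 and Meg3 were the most abundant members in CPEB4 RIP. Airn had 16.1 ± 0.998 FPKM, Peg3 10.01 ± 0.244, H19 4.37 ± 0.217 and Meg3 3.27 ± 0.155 FPKM in CPEB4 RIP (SD, n = 2). They were followed in order by Plagl1 at 1.80, Mirg at 1.22, Rian at 0.713, Kcnq1ot1 at 0.145, Dlk1 at 0.103 and Igf2 at 0.046 FPKM, and no neighbours in this order had overlapping libraries. In IgG RIP the order was Peg3 (15.75 ± 4.12 FPKM), Airn (10.02 ± 3.59), Meg3 (6.52 ± 0.329) and Plagl1 (3.05 ± 0.829), and H19 was next at 1.87 ± 1.79 FPKM, its libraries spanning those of Rian and Mirg and overlapping those of Plagl1. In input Peg3 led with 17.6 ± 3.34 FPKM, followed by Meg3 with 12.4 ± 3.37 and Airn with 12.2 ± 0.868, of which the last 2 overlapped. H19 was only eighth in input, at 0.757 ± 0.242 FPKM, and overlapped Kcnq1ot1 at 0.770 ± 0.117 FPKM. Igf2 and Dlk1 were the lowest members in all 3 groups. FPKM depend on the gene model that the counting used, which for Airn was 3597 bases, of a RefSeq span of 118574.

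Of the 10 members, 9 passed the filter on low counts and were tested with edgeR's quasi-likelihood test, adjusted by Benjamini-Hochberg over 18054 genes. Over IgG RIP, 3 of 9 were lower in CPEB4 RIP at an adjusted p under 0.05, namely Kcnq1ot1, Rian and Meg3, and 0 were higher. Among all genes tested 8.21% passed, 3.42% lower and 4.79% higher. Over input, 4 of 9 were lower, the same 3 and Peg3, and 0 were higher, where 12.7% of all genes passed, 4.7% lower and 8.0% higher. The median log2 fold change of the 9 was -0.85 over IgG RIP and -0.82 over input, beside -0.07 and -0.06 for all genes. Both comparisons share the CPEB4 RIP libraries. Because the members were chosen with earlier results known, these counts and medians describe the list and do not test it against all genes. The CPEB4 RIP libraries lay below both IgG RIP libraries for 6 of the 9 members, above both for 2 (H19 and Airn), and overlapped them for Mirg. Among all genes tested, both CPEB4 RIP libraries lay below both IgG RIP libraries for 25.5% and above both for 29.4%, so that such a separation alone was common.

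The count over IgG RIP rested on both CPEB4 RIP libraries. It was 1, Kcnq1ot1, without replicate 1 of CPEB4 RIP and 0 without replicate 2, when 204 and 0 genes passed among all tested, the 0 standing beside 2312 genes with an unadjusted p under 0.05. It was 5 without replicate 1 of IgG RIP and 6 without replicate 2, when 37.0% and 35.1% of all genes passed, and 3 without each input library in turn. Over input it was 2, Meg3 and Kcnq1ot1, without replicate 1 of CPEB4 RIP and without each input library in turn, when 2.90%, 3.05% and 3.46% of all genes passed. It was 1, Kcnq1ot1, without replicate 2 of CPEB4 RIP, when 0.541% of all genes passed. It was 7 without each IgG RIP library in turn, when 38.2% and 37.6% of all genes passed. Among these 6 fits, Rian and Peg3 passed over input only where both CPEB4 RIP and both input libraries were used. DESeq2's Wald test gave 4 members over IgG RIP and 5 over input.

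**Figure D2:**
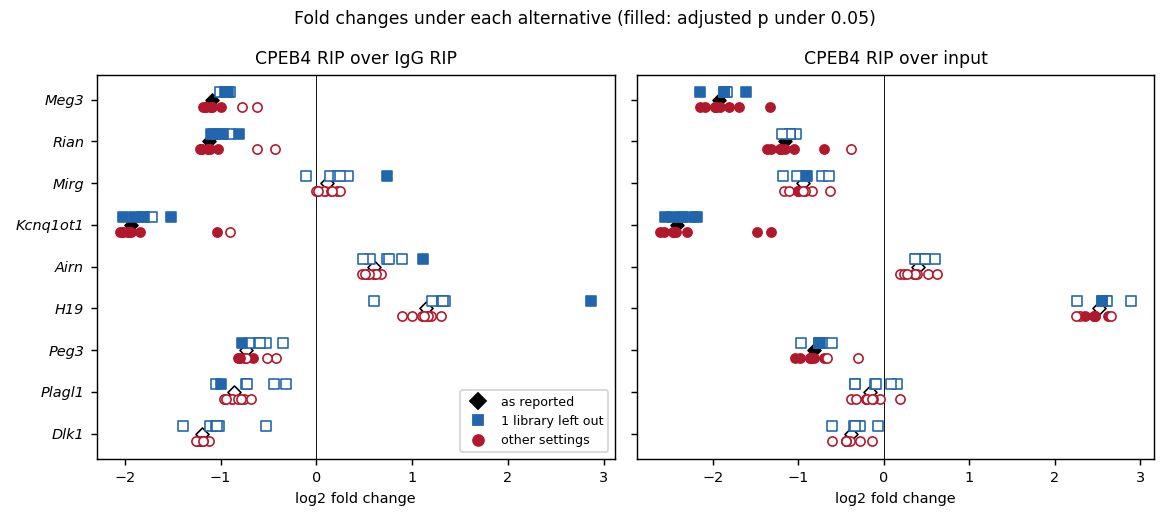
Log2 fold change (x axis) of the 9 members tested (y axis) as reported (diamonds), with 1 library left out (squares) and under the other settings tried (circles), CPEB4 RIP over IgG RIP on the left and over input on the right. Filled symbols have an adjusted p under 0.05. Kcnq1ot1 over input is filled throughout, and H19 over IgG RIP spans 0.61 to 2.87.

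**Figure D3:**
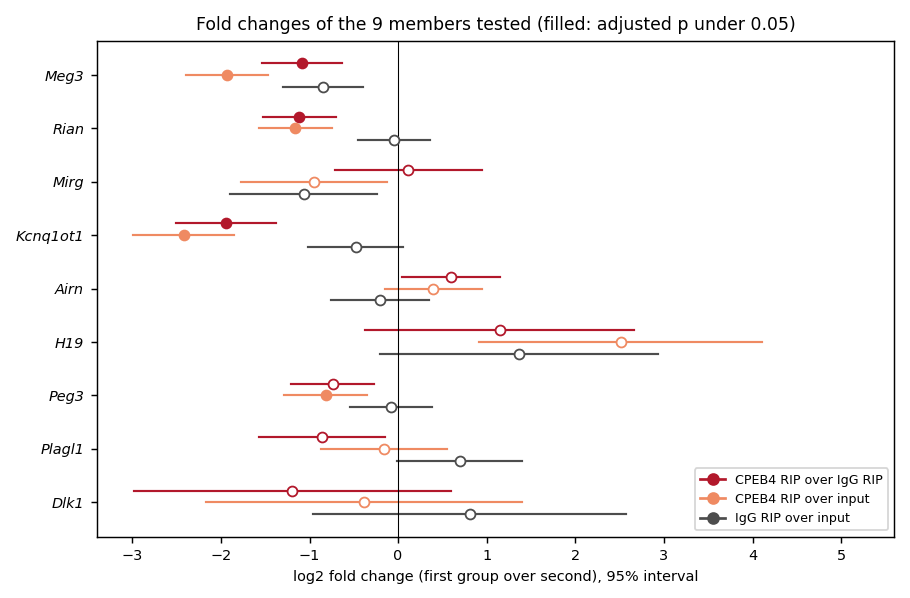
Log2 fold change (x axis) of the 9 members tested (y axis), CPEB4 RIP over IgG RIP, CPEB4 RIP over input and IgG RIP over input, from edgeR. Points are estimates, bars 95% intervals, and filled points have an adjusted p under 0.05: Meg3, Rian and Kcnq1ot1 lie left of 0 in both comparisons of CPEB4 RIP, and the interval of H19 over input, 0.92 to 4.11, lies right of 0 though it did not pass.

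Meg3 is a nuclear-enriched noncoding RNA that contacts chromatin and Polycomb proteins. It had 83.5 and 80.3 CPM in CPEB4 RIP, 172 and 175 CPM in IgG RIP, and 369 and 255 CPM in input. The 3 groups formed 3 separate levels, CPEB4 RIP lowest and input highest. Meg3 was 2.12-fold lower in CPEB4 RIP than in IgG RIP, a log2 fold change of -1.09 (SE 0.20, edgeR adjusted p = 0.0204), and 3.81-fold lower than in input, -1.93 (SE 0.20, edgeR adjusted p = 0.00254). In IgG RIP it was itself below input in both libraries, by a log2 fold change of -0.84 that did not pass the test (SE 0.19, edgeR adjusted p = 0.202).

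Rian, the next transcript of the domain, hosts arrays of C/D box small nucleolar RNAs in its introns. It had 31.4 and 31.8 CPM in CPEB4 RIP, 74.4 and 62.5 CPM in IgG RIP, and 72.8 and 68.3 CPM in input. Unlike Meg3, its IgG RIP and input libraries overlapped, with a log2 fold change of -0.04 of IgG RIP over input (SE 0.17, edgeR adjusted p = 0.951). CPEB4 RIP stood 2.17-fold below IgG RIP (-1.12, SE 0.18, edgeR adjusted p = 0.0152) and 2.23-fold below input (-1.16, SE 0.18, edgeR adjusted p = 0.00765).

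Mirg, the host of the domain's largest microRNA cluster, did not pass either test. It had 13.7 and 10.8 CPM in CPEB4 RIP, 14.4 and 8.28 CPM in IgG RIP, and 28.0 and 19.3 CPM in input. The CPEB4 RIP and IgG RIP libraries overlapped (log2 fold change 0.11, 95% interval -0.72 to 0.95, edgeR adjusted p = 0.865), and both groups lay below both input libraries. CPEB4 RIP over input was -0.95 (SE 0.35, edgeR adjusted p = 0.129).

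Meg3, Rian and Mirg are transcribed in the same direction, one behind another, with gaps of 32215 and 73264 bases in the annotation, and their ratios are given library by library. Rian had 0.375 and 0.396 counts per Meg3 count in the CPEB4 RIP libraries, 0.432 and 0.356 in the IgG RIP libraries, and 0.197 and 0.268 in the input libraries. Both kinds of immunoprecipitate thus had more Rian for each Meg3 than input had. Mirg had 0.164 and 0.135 counts per Meg3 count in the CPEB4 RIP libraries, 0.0840 and 0.0472 in the IgG RIP libraries, and 0.0759 and 0.0757 in the input libraries, and here CPEB4 RIP lay above both other groups. Per Rian count, Mirg had 0.437 and 0.341 in the CPEB4 RIP libraries, 0.194 and 0.132 in the IgG RIP libraries, and 0.385 and 0.282 in the input libraries, so that IgG RIP lay lowest. These ratios are given as values and were not tested. The gene model of Mirg (7292 bases) is shorter than those of Meg3 (18089) and Rian (31981). Over all genes, fold changes of CPEB4 RIP fell with length, as given below. The part of length in these ratios was not tested.

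**Figure D4:**
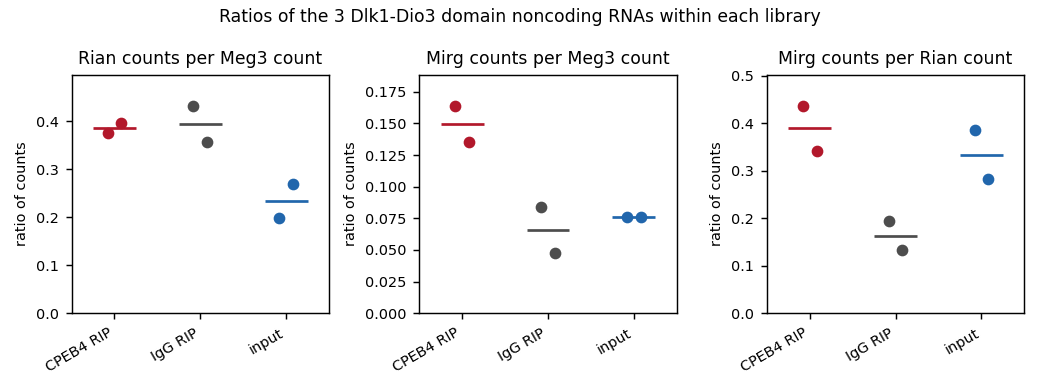
Ratios of counts within each library (y axis, starting at 0) of Rian to Meg3, Mirg to Meg3 and Mirg to Rian, in CPEB4 RIP, IgG RIP and input (x axis). Points are libraries and lines are means of 2. Rian per Meg3 is lower in both input libraries than in the other 4, and Mirg per Meg3 is highest in CPEB4 RIP, at 0.164 and 0.135.

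Kcnq1ot1, a nuclear RNA that silences the neighbouring genes of its chromosome in cis, had the lowest fold change of the 9 members. It had 20.9 and 16.5 CPM in CPEB4 RIP, 82.9 and 60.1 CPM in IgG RIP, and 88.0 and 111 CPM in input. The 3 groups did not overlap. It was 3.83-fold lower in CPEB4 RIP than in IgG RIP (log2 fold change -1.94, SE 0.24, edgeR adjusted p = 0.00880) and 5.34-fold lower than in input (-2.42, SE 0.24, edgeR adjusted p = 0.00249). The call over input held without each library in turn, with an edgeR adjusted p of at most 0.0497, and that over IgG RIP was lost without replicate 2 of CPEB4 RIP (adjusted p = 0.160). Kcnq1, the potassium channel gene around it, had 3 and 1 counts in the CPEB4 RIP libraries, 8 and 0 in the IgG RIP libraries, and 16 and 13 in the input libraries, against 253 to 1625 counts of Kcnq1ot1 per library.

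Airn, which silences Igf2r in cis in many tissues, had its highest levels in CPEB4 RIP but did not pass the test. It had 75.5 and 84.7 CPM in CPEB4 RIP, 40.7 and 64.8 CPM in IgG RIP, and 63.3 and 58.3 CPM in input. Both CPEB4 RIP libraries lay above the other 4, with log2 fold changes of 0.60 over IgG RIP (SE 0.24, edgeR adjusted p = 0.158) and 0.40 over input (SE 0.24, edgeR adjusted p = 0.315). Igf2r, the receptor that clears the growth factor Igf2 from the cell surface, had 275 and 292 CPM in CPEB4 RIP, 322 and 335 CPM in IgG RIP, and 262 and 283 CPM in input. Airn had 0.275 and 0.290 counts per Igf2r count in the CPEB4 RIP libraries, 0.126 and 0.194 in the IgG RIP libraries, and 0.241 and 0.206 in the input libraries, so the order of the groups was that of Airn itself.

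H19, an abundant fetal RNA that is exported to the cytoplasm and carries miR-675, had the highest fitted fold change of the members. It had 15.2 and 14.6 CPM in CPEB4 RIP, 2.23 and 11.1 CPM in IgG RIP, and 3.14 and 2.02 CPM in input. The CPEB4 RIP libraries lay above all others, and one IgG RIP library came nearest to them while the other lay among the input libraries. Over input the log2 fold change was 2.51 (95% interval 0.92 to 4.11, edgeR adjusted p = 0.0531), 5.70-fold and just outside the threshold, and over IgG RIP 1.14 (95% interval -0.37 to 2.66, edgeR adjusted p = 0.301). Over input it passed in 7 of 15 alternatives, DESeq2's Wald test among them (adjusted p = 0.00185), with adjusted p-values from 7.63e-11 to 0.294. Over IgG RIP it passed only without replicate 2 of IgG RIP, at a log2 fold change of 2.87 (edgeR adjusted p = 9.61e-07), against 0.61 without replicate 1.

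The summed level of the fibro-adipogenic markers had the same split over the libraries as H19, and so had the leukocyte and endothelial sums. Fibro-adipogenic markers summed to 1721 and 1383 CPM in CPEB4 RIP, where H19 was high, and to 1130 CPM in replicate 2 of IgG RIP, where H19 was at 11.1 CPM. They summed to 806 CPM in replicate 1 of IgG RIP and to 584 and 768 CPM in input, where H19 was at 2.02 to 3.14 CPM. None of the 6 was at 0 in any library, and 2 of 6 were higher in CPEB4 RIP over IgG RIP and 2 of 6 over input, by the test used for the members. Among all genes 4.79% and 8.0% were higher. The myofibre list also had 2 of 6 higher over each background, and the erythroid list had 3 of 5. Dcn and Col3a1, the most abundant of the 6, had the split of H19, and Ly6a, Lum, Mfap5 and Pdgfra did not. Col3a1 differed little between the IgG RIP libraries, at 521 and 553 CPM. Ly6a and Mfap5 were lower in replicate 2 of IgG RIP than in replicate 1, Mfap5 at 7.97 against 10.7 CPM. Lum was at 20.2 CPM in replicate 2 of input, above 14.7 CPM in replicate 2 of CPEB4 RIP. Pdgfra, a defining marker of these cells, was highest in an input library, with 3.14 and 2.30 CPM in CPEB4 RIP, 1.06 and 3.08 CPM in IgG RIP, and 4.88 and 3.19 CPM in input. Erythroid markers, also highest in CPEB4 RIP, summed to 146 CPM in replicate 2 of IgG RIP, where H19 was high, and to 178 CPM in replicate 2 of input, where it was low. Leukocyte markers summed to 53.6 and 70.0 CPM in CPEB4 RIP, 27.2 and 49.3 CPM in IgG RIP, and 29.8 and 35.7 CPM in input. Endothelial markers summed to 471 and 314 CPM in CPEB4 RIP, 217 and 319 CPM in IgG RIP, and 212 and 236 CPM in input. The pericyte and Schwann lists had their highest sums in replicate 2 of IgG RIP. The part of these markers in the result was not tested.

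Igf2, the fetal growth factor that shares its enhancers with H19, was near the limit of detection. It had 5 and 6 counts in the CPEB4 RIP libraries, 2 and 14 in the IgG RIP libraries, and 4 and 5 in the input libraries, 36 in all, and did not pass the filter. These are 0.413 and 0.314 CPM in CPEB4 RIP, 0.212 and 1.05 CPM in IgG RIP, and 0.217 and 0.389 CPM in input, with groups that overlap. H19 had more counts than Igf2 in every library, from 5.2 to 46.3 counts for each.

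Peg3, a zinc finger protein that acts in growth and in stress and p53 signalling, was the coding member with the highest level. It had 185 and 184 CPM in CPEB4 RIP, 259 and 357 CPM in IgG RIP, and 366 and 284 CPM in input. CPEB4 RIP lay below the other 4 libraries, which overlapped each other. The log2 fold change was -0.74 over IgG RIP (SE 0.20, edgeR adjusted p = 0.0655), which did not pass, and -0.82 over input (SE 0.20, edgeR adjusted p = 0.0377), which did. Over IgG RIP it passed in 7 of 15 alternatives, and over input in 9 of 15. Usp29, which starts 96 bases from Peg3 in the opposite direction and shares 263 bases of its promoter window, had 58 and 62 counts in the CPEB4 RIP libraries, 49 and 37 in the IgG RIP libraries, and 64 and 40 in the input libraries. It did not pass either test (log2 fold change 0.01 over IgG RIP and 0.28 over input).

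Plagl1 (Zac1), a zinc finger transcription factor that controls other imprinted genes, had 16.4 and 22.5 CPM in CPEB4 RIP, 43.0 and 27.7 CPM in IgG RIP, and 24.9 and 18.7 CPM in input. Its CPEB4 RIP libraries lay below those of IgG RIP and overlapped those of input. The log2 fold change was -0.85 over IgG RIP (SE 0.31, edgeR adjusted p = 0.126) and -0.16 over input (SE 0.30, edgeR adjusted p = 0.767). Dlk1, a membrane protein of the Notch ligand family that restrains fat cell differentiation and is active in growing muscle, had only 10 to 32 counts per library and 103 in all. Its level was 0.825 and 0.785 CPM in CPEB4 RIP, 1.27 and 2.41 CPM in IgG RIP, and 1.25 and 0.856 CPM in input. The log2 fold change of Dlk1 was -1.19 over IgG RIP (95% interval -2.98 to 0.59, edgeR adjusted p = 0.357). Over input it was -0.39 (SE 0.76, edgeR adjusted p = 0.780), and neither passed.

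Between the backgrounds themselves, 0 of the 9 members and 0.0% of all genes passed edgeR's test for IgG RIP over input, beside 2550 genes at an unadjusted p under 0.05 and 706 genes by DESeq2. Meg3 was the one member past DESeq2's test (log2 fold change -0.88, adjusted p = 0.00131). Kcnq1ot1 (-0.48), Meg3 (-0.84) and Mirg (-1.07) had both IgG RIP libraries below both input libraries, Dlk1 (0.81) and Plagl1 (0.69) had both above, and the other 4 overlapped. Among all genes tested, 20.7% had both IgG RIP libraries below both input libraries and 21.4% had both above. Without replicate 1 of IgG RIP, 4 members and 32.0% of all genes passed, with H19 at 1.94, and without replicate 2, 2 members and 8.23% of all genes passed, with H19 at -0.31.

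The members lower in CPEB4 RIP were those with the longest gene models. Over all genes, the median log2 fold change of CPEB4 RIP over IgG RIP was 0.33 for models under 2 kb, -0.04 for 2 to 4 kb, -0.13 for 4 to 8 kb, -0.34 for 8 to 16 kb and -0.47 for models over 16 kb. The share of genes called lower was 0.901% under 2 kb and 11.05% over 16 kb, where Meg3 (18089 bases), Rian (31981) and Kcnq1ot1 (93092) lie. The model of Kcnq1ot1 is longer than its RefSeq span of 83437 bases, so the annotation used for counting differs from RefSeq there. H19 (2460 bases) and Airn (3597) are in the band of 2 to 4 kb. Set against genes of their own band, Meg3, Rian and Kcnq1ot1 were below the lower quartile over IgG RIP (-0.99) and over input (-1.03), Peg3 (13324 bases) was above it in both, and H19 was above the upper quartile in both. In the band of 4 to 8 kb, Dlk1 and Plagl1 were below the lower quartile over IgG RIP (-0.77) but not over input. Mirg was below it over input (-0.90) but not over IgG RIP. Airn was within the quartiles of its band in both. By definition, a set share of each band lies below its lower quartile.

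An offset for gene length, added after seeing the data, left fewer of these calls. With a length curve fitted over all genes, 0 genes and 0 members passed over IgG RIP, beside 3797 genes at an unadjusted p under 0.05, and the log2 fold changes were -0.62 for Meg3, -0.43 for Rian and -0.90 for Kcnq1ot1. Over input 661 genes and 2 members passed, Kcnq1ot1 at -1.32 (edgeR adjusted p = 0.0393) and Meg3 at -1.33 (edgeR adjusted p = 0.0499). With the curve fitted on the 7400 genes of at least 10 CPM, 1510 genes passed over IgG RIP and Kcnq1ot1 was the one member (-1.04, edgeR adjusted p = 0.0187), with Meg3 at -0.78 (adjusted p = 0.0647) and Rian at -0.62 (adjusted p = 0.0696). Over input Meg3 (-1.69), Kcnq1ot1 (-1.48) and Rian (-0.70) passed with this curve.

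**Figure D5:**
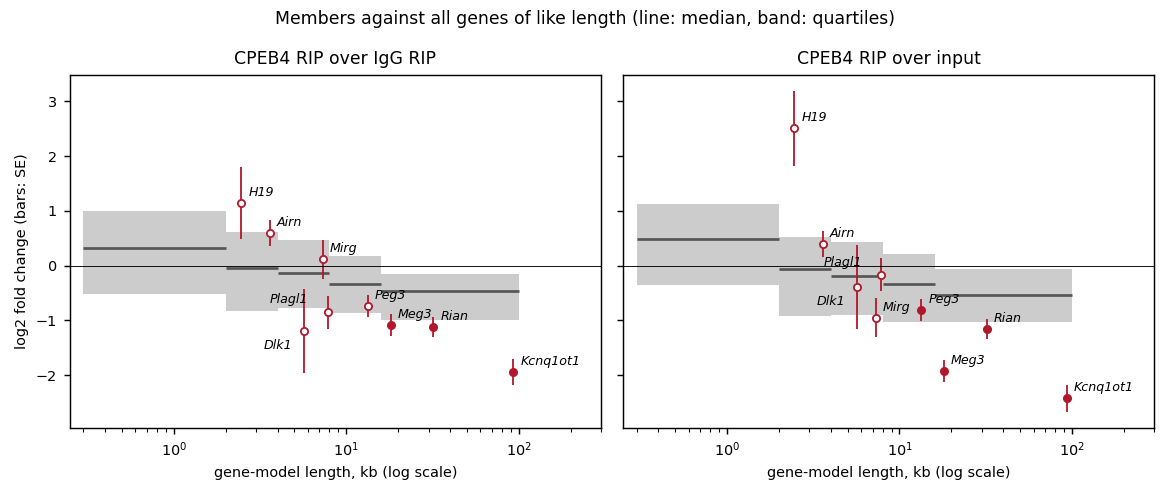
Log2 fold change of the 9 members tested (y axis, bars SE) against the length of the gene model in kb (x axis, log scale), CPEB4 RIP over IgG RIP on the left and over input on the right. Grey bands are quartiles and dark lines medians of all genes in 5 length bands, and filled points have an adjusted p under 0.05. Medians fall with length, and Kcnq1ot1, at -1.94 and -2.42, lies below the band of the genes over 16 kb in both panels.

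Of 65 further genes of imprinted domains, 52 were tested, and over IgG RIP 1 was higher and 2 lower in CPEB4 RIP, with a median log2 fold change of -0.18. These 3 of 52 stand beside 8.21% of all genes and do not set the list apart. Pon2, a paraoxonase, was higher (1.14, SE 0.20, edgeR adjusted p = 0.0189). Grb10, an adaptor that dampens insulin and growth factor receptor signalling, was lower (-0.75, SE 0.17, edgeR adjusted p = 0.0414), as was the histone chaperone gene Nap1l4 (-0.59, SE 0.14, edgeR adjusted p = 0.0471). Over input 2 were higher and 2 lower, 4 of 52 beside 12.7% of all genes, with a median of 0.06. Cdkn1c, a cyclin-dependent kinase inhibitor silenced by Kcnq1ot1, was higher (2.09, SE 0.33, edgeR adjusted p = 0.00839), as was Ago2, the slicer of the microRNA pathway (1.03, SE 0.23, edgeR adjusted p = 0.0278). Calcr, the calcitonin receptor of quiescent muscle stem cells and a marker of them, was lower (-1.38, SE 0.22, edgeR adjusted p = 0.00890), and so was Nap1l4 (-0.76, SE 0.14, edgeR adjusted p = 0.0150). Cdkn1c had 22.9 and 21.5 CPM in CPEB4 RIP, 12.1 and 9.40 CPM in IgG RIP, and 4.12 and 6.38 CPM in input, and the 3 groups did not overlap.

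The partners of Igf2 were measured where Igf2 itself was scarce. Of 13 receptors, binding proteins and message-binding proteins, all tested, 2 were higher in CPEB4 RIP over IgG RIP and 0 lower, with a median log2 fold change of 0.08, where 4.79% of all genes were higher. These were the secreted binding proteins Igfbp4 (1.55, SE 0.21, edgeR adjusted p = 0.00970) and Igfbp7 (1.39, SE 0.23, edgeR adjusted p = 0.0161). Igfbp4 had 140 and 124 CPM in CPEB4 RIP, 37.7 and 52.4 CPM in IgG RIP, and 31.1 and 32.8 CPM in input. Over input 4 were higher, Igfbp3, Igfbp4, Igfbp6 and Igfbp7 (log2 fold changes of 1.30 to 2.77), and 1 lower, the mRNA-binding protein Igf2bp3 (-2.54, SE 0.61, edgeR adjusted p = 0.0348), where 8.0% of all genes were higher and 4.7% lower. Fibro-adipogenic marker sums were higher in the CPEB4 RIP libraries too, as were the erythroid, leukocyte, myofibre and muscle stem cell sums given above. The part of these markers in the result was not tested.

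Of 13 long noncoding RNAs listed from outside imprinted domains, 12 were in the table and 10 tested, of which 1 was higher and 0 lower over each background, with median log2 fold changes of 0.34 over IgG RIP and 0.26 over input. Since 3.42% and 4.7% of all genes were lower over these backgrounds, 0 of 10 is near the background. With 4.79% and 8.0% of all genes higher, 1 of 10 is near it too. The one was Snhg1, a snoRNA host gene, at 1.06 over IgG RIP (SE 0.22, edgeR adjusted p = 0.0307) and 1.004 over input (SE 0.22, edgeR adjusted p = 0.0248). Malat1, a nuclear speckle RNA, had 3978 and 4033 CPM in CPEB4 RIP, 4313 and 4862 CPM in IgG RIP, and 3096 and 3524 CPM in input. Neat1, the scaffold of paraspeckles, had 148 and 152 CPM in CPEB4 RIP, 118 and 202 CPM in IgG RIP, and 186 and 166 CPM in input, and its model of 20771 bases is in the length band of Meg3. Neither passed, at -0.20 and -0.10 over IgG RIP. Of the 10 tested, 6 were fitted above IgG RIP and 4 below. The lowest were Ftx at -0.83 (SE 0.51) and Tug1 at -0.42 (SE 0.27), which did not pass either.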

How the data were processed

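The authors deposited raw counts per gene for the 6 libraries, and a table of FPKM, which divide fragments by gene length and by a library total. HISAT2, featureCounts and the mm10 build are named in the submitters' processing notes without versions. The sources used here do not give the annotation, how strand and multiply mapped reads were handled, or the library total behind the deposited FPKM. Gene-model lengths came from the ratio of counts to FPKM, scaled on 1336 small RNA genes with lengths in RefSeq. All 10 members matched the RefSeq gene table, as did 38407 of the 55376 symbols.

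The members and gene lists were chosen with earlier results of these data known. All members are named, as are other imprinted genes past the threshold and genes that overlap or neighbour a member. In R 4.3.3, edgeR 4.0.16 kept 18054 genes (filterByExpr, minimum count 10, minimum total 15), scaled by TMM and fitted group to all 6 libraries (glmQLFit and glmQLFTest, two-sided, 3 residual degrees of freedom, Benjamini-Hochberg over all genes, threshold 0.05). CPM are normalised with the TMM factors. DESeq2 was 1.42.0. Data were also simulated for CPEB4 RIP over IgG RIP, with 18054 genes, of which 200 were changed. All genes had the same spread between replicates, a dispersion of 0.05. There the test recovered 17.0% of 2-fold and 77.7% of 4-fold changes, and 3.26% of 92 calls were false. The spread of the real libraries was not simulated, so these rates are not error rates of the calls reported here. Reads carry no molecular identifiers in the deposited tables, so the limit given for hairpin genes without counts covers counting error only. The SE and intervals of fold changes came from the edgeR fit and include the spread between libraries. Replicate libraries differed by more than sampling noise (chi-square per degree of freedom of 8.03 to 28.1). The correlations of same-numbered deviations between groups were weak, at 0.133, -0.016 and 0.070, and the main fit did not pair the libraries. Weak correlations cannot show whether same-numbered libraries shared a preparation, which is not known here.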

Additional observations from a re-analysis of the deposited data

How the results depend on the processing

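Each of the 9 members tested and each count of calls was refitted with other scaling, filters, tests and samples, and with a gene length offset that was chosen after seeing the data. The count of genes over IgG RIP (1482) became 2428 with no low-count filter, 2892 with DESeq2 and 0 with the length offset. That over input (2293) became 3479 with DESeq2, 7340 with only the 4 libraries compared and 661 with the length offset, and that of IgG RIP over input (0) became 457 with no filter, 7 with a mean count of at least 20 and 706 with DESeq2. Members called over IgG RIP (3) became 0 with the length offset and 1 with the curve from genes of at least 10 CPM, over input (4) 2 with the length offset, and for IgG RIP over input (0) 1 with no filter and 1 with DESeq2, Meg3 each time. Other imprinted genes called over IgG RIP (3) became 5 with no filter, 5 with a mean count of at least 20, 9 with DESeq2 and 0 with the length offset. Over input (4) they became 7 with library size alone, 8 with no filter, 7 with a mean count of at least 20, 9 with DESeq2, 24 with 4 libraries, 2 with the length offset and 8 with the curve from genes of at least 10 CPM, and for IgG RIP over input (0) 3 with no filter and 5 with DESeq2. With 1 library left out, genes called ranged from 0 to 7710 over IgG RIP, 117 to 7966 over input and 0 to 6657 for IgG RIP over input, members from 0 to 6, 1 to 7 and 0 to 4, and other imprinted genes from 0 to 22, 0 to 26 and 0 to 24. For the same fits, members that changed sign ranged from -0.11 to 0.74 for Mirg over IgG RIP, from -0.34 to 0.16 for Plagl1 over input and, for IgG RIP over input, from -0.30 to 0.0022 for Rian, -0.31 to 1.94 for H19 and -0.40 to 0.0096 for Peg3. Library size alone gave a median of all genes of -0.27 over input, against -0.06 with TMM, and 47.2% and 44.2% of calls higher in CPEB4 RIP over IgG RIP and input, against 58.3% and 63.0%. The length offset reversed members that had not passed, to 0.19 for Plagl1 over input and, for IgG RIP over input, 0.049 for Rian, 0.12 for Peg3 and 0.14 for Airn. With a replicate block, although it is not known whether the numbers pair the libraries, members called stayed at 3 over IgG RIP and 4 over input. Other imprinted genes became 5 and 7 with this block, and genes for IgG RIP over input 25. The causes of these shifts were not tested. Igf2 and Dlk1 had few counts, 36 and 103 in all.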

Other observations

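The profile of Peg3, the member with the highest mean level, was set against those of 7399 other genes of at least 10 CPM by the distance of centred log2 CPM over the 6 libraries. The nearest were Clip1 (0.199), a microtubule plus-end protein, Safb (0.202), a nuclear matrix protein, Nsf (0.216), an ATPase of membrane fusion, Lman1 (0.217), a cargo receptor of the secretory pathway, and Helz (0.229), an RNA helicase. Clip1 had 127 and 126 CPM in CPEB4 RIP, 171 and 217 CPM in IgG RIP, and 217 and 188 CPM in input. Among the members the closest pair by the same distance was Rian and Peg3 (0.692), on different chromosomes, ahead of Peg3 and Dlk1 (0.917) and of Meg3 and Rian (0.952), which are neighbours on chromosome 12.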
